A study of Mus musculus with 18 samples.

Results

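The genes described here had fewer reads with FGF6 than with vehicle after 24 h of treatment and differed little after 4 h. The cells were a line of murine brown preadipocytes immortalized with SV40 T antigen. Members were chosen from CPM values (a gene's reads per 1000000 counted reads of its library) by the difference d, which is log2 of the mean FGF6 CPM plus 0.5 minus log2 of the mean vehicle CPM plus 0.5. A gene had to reach a mean of at least 1 CPM in 1 of the 6 groups, have d of -1.5 or lower at 24 h and have d between -0.3 and 0.3 at 4 h. This gave 187 genes of the 13038 that reached 1 CPM and of the 48023 in the count table. The 4 h and 24 h values therefore chose the members and are given as description with no test, and the 8 h libraries, which the choice did not use apart from the CPM minimum, are the ones tested. Of 909 genes with d of -1.5 or lower at 24 h, 696 were left out because d was already below -0.3 at 4 h and 26 because it was above 0.3.

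The study treated the cells with recombinant FGF6, a secreted fibroblast growth factor, at 200 ng/ml, or with vehicle (labelled Veh), and sequenced RNA at 4, 8 and 24 h with 3 libraries a group, 18 in all. The comparison asks which transcripts FGF6 changes over time in precursor cells that are not yet induced to become adipocytes. All groups share 1 immortalized line, so the libraries are samples of that line and not of separate animals, and p-values measure only the spread between these samples, which may be technical. Counted reads a library ran from 24327816 to 33471980.

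Many of the members belong to a few well known programs. Interferon-stimulated genes are switched on when type I interferon, sensed through its receptor at the cell surface, sends transcription factors to a short DNA element in their promoters, and their products block viral replication, sense foreign nucleic acid or tag proteins with the ubiquitin-like protein ISG15. MHC class I molecules and the TAP transporter display peptides at the cell surface. Complement and acute-phase proteins are secreted in inflammation, and fibroblast-like precursors also build the extracellular matrix of fibrillin, collagen and small proteoglycans.

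By roles assigned after the members were known, 55 of the 187 members were interferon-stimulated or antiviral genes, 8 belonged to MHC class I and antigen processing, 14 were complement or acute-phase proteins, 21 were matrix proteins or matrix enzymes, 4 were actin or contractile proteins and 85 had other roles. By annotation 165 members were protein coding. The label "repressed only late" holds for the 4 h and 24 h values by construction, but it does not describe 8 h: the median d over the members was -0.13 at 4 h, -0.81 at 8 h and -2.53 at 24 h, and 169 of the 187 had a negative d at 8 h. Over all 13038 genes the medians were -0.14, -0.10 and -0.01, so the members' median at 4 h was that of the genes at large.

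1 library stands apart and decides 16 of the members. In replicate 3 of vehicle at 24 h, small structural and ribosomal RNAs and a few other gene models were far above both other replicates. Without that library these genes do not meet the rule: Rn7sk, Rpph1, CT010467.1, Rmrp, Gm24601, Gm24265, n-R5-8s1, Gm15564, Gm23935, Lars2, Gm24407, Mir6236 and Gm37194, which were high in it, and Slc1a6, Tnn and Itgax, which were not and lay close to a threshold. CT010467.1, a gene model on chr17:39846353-39848827 that shares exonic bases with AY036118 and Gm42418, had 149, 139.8 and 10286 CPM in the vehicle libraries at 24 h and 159, 136 and 169 CPM with FGF6. Lars2, the mitochondrial leucyl-tRNA synthetase, had 198, 206 and 2377 CPM in vehicle and 169, 169 and 187 CPM with FGF6. In both genes a single vehicle library was high, and the other two lay close to the FGF6 libraries. The libraries of 8 members overlapped between the treatments at 24 h, and all 8 are among these 16. Chosen without that library there would be 175 members, of which 171 are also among the 187. The interferon-stimulated, MHC class I, complement and contractile members all stayed, and the 55 interferon-stimulated members summed to 10090.0, 11151 and 10323 CPM in the 3 vehicle libraries at 24 h.

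The promoters of the interferon-stimulated members are shown because these genes moved together. RefSeq promoter windows on GRCm38.p6, running from 250 bases before the start of the gene to 50 after it, were matched for 128 of the 187 members, fewer than 80%, so a search over all members is void. The match reached 44 of the 55 interferon-stimulated members. In 24 of these 44, 54.5%, a window held the core of the interferon-stimulated response element, searched as GAAA, then 2 bases of any kind, then GAAA, on both strands, against 3.99% of the 27025 genes with a window. Matches of Apol9a and Apol9b, Ifit3 and Ifit3b, Oas1a and Oas1g, and Trim30a and Trim30d share site and flanks. The windows of the 44 are therefore not all independent sequences. This motif was added after the members were known. The group was named for genes that interferon switches on through this element. A high share is therefore largely given by the naming and says nothing about FGF6. The Isg15 window, chr4:156200769-156201068 on the minus strand, held 3 overlapping matches, which start -78, -72 and -66 bases from the gene's start and are in capitals in the whole window below. For 6 other members 30 bases around the match nearest the start are shown, with the 10 matching bases in capitals, read along the gene's strand from the windows of Ifit3 (chr19:34583279-34583578, plus strand, match from base -122), Gbp2 (chr3:142620413-142620712, plus, -59), Igtp (chr11:58199306-58199605, plus, -34), Oas1a (chr5:120907476-120907775, minus, -14), Rsad2 (chr12:26456403-26456702, minus, -120) and Irgm1 (chr11:48871371-48871670, minus, -24).
Isg15: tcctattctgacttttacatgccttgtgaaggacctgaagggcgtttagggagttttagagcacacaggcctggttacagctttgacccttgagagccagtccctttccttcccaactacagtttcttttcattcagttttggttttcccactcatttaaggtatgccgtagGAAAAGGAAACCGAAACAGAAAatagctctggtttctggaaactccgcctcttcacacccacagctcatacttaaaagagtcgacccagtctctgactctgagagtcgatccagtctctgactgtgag
Ifit3: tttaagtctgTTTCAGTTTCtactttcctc
Gbp2: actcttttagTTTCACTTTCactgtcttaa
Igtp: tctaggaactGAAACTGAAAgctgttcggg
Oas1a: tcgggaaatgGAAACTGAAAatctacttcc
Rsad2: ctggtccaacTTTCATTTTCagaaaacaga
Irgm1: tcaagaaataGAAACCGAAActgattctca
In Ifit3, Gbp2 and Rsad2 the capitals are the reverse complement of the core, and in the others the core itself. The windows of Ifi44 and Oasl2, members with some of the lowest d at 24 h, held no match, which says only that these letters are not in those windows. 9 other motifs were searched on both strands in the same 44 members. TGANTCA was in 29.5% of them against 8.97% of all genes with a window. Its middle base was left free, so it takes in the AP-1 site but also other sequences, such as TGATTCA in the Ifit3 window. TTGNNNCAA was in 13.6% against 6.6%, GTAAACA in 6.82% against 4.05% and GGAATG in 18.2% against 16.6%. The shares were below those of all genes for TATAAA (13.6% against 15.7%), CCAATC (11.4% against 18.2%), CACGTG (2.27% against 8.09%), GGGCGG (36.4% against 38.2%) and CAGACA (15.9% against 23.6%). The side depends on the genes compared. Over the 10818 genes tested that had a window, TATAAA was in 8.98%, below the 13.6% of the 44, and GGGCGG in 67.7%. The rest of the 9 motifs kept their side. The gamma-activated site, TTCNNNGAA, was in 7 of the 44, 15.9%, against 9.55%, and the NF-kB site in 1, 2.27%, against 0.466%, both added after the members were known. TGANTCA and TTCNNNGAA read the same on both strands, and a match of TTCNNNGAA can share bases with a match of the core.

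The tested result is that most of the members were already lower with FGF6 at 8 h. Of the 187, 183 passed the filter on low counts and entered the edgeR quasi-likelihood fit over 15071 genes. Rn7sk, Rmrp, Gm24265 and Gm24407 did not pass. At a Benjamini-Hochberg adjusted p (FDR) under 0.05, 153 of the 183 members were lower at 8 h, where 38.4% of all genes tested were lower. 3 were higher, where 32.4% of all genes were, and 27 were not called. 75 were lower by at least 2-fold, where 10.9% of all genes were. The median log2 fold change at 8 h was -0.84 over the members tested and -0.05 over all genes tested. Every FGF6 library lay below every vehicle library at 8 h in 158 of the 183, against 43.7% of all genes tested. No member met the CPM minimum through an 8 h group alone. Over the 171 members that do not rest on vehicle replicate 3 of 24 h, 150 were lower, 3 were higher and 73 were lower by at least 2-fold, with a median of -0.86.

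**Figure D1:**
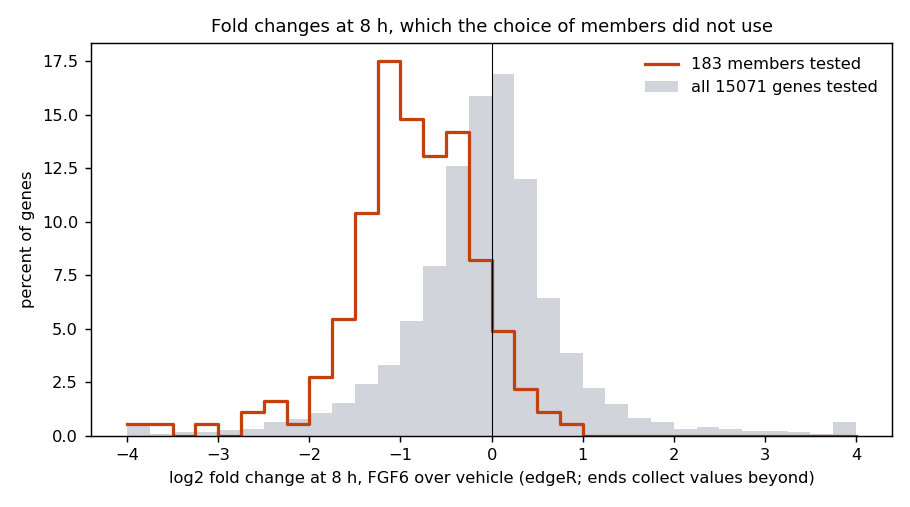
Log2 fold change of FGF6 over vehicle at 8 h in bins of 0.25, in percent of the 15071 genes tested (grey bars) and of the 183 members tested (orange line); the end bins collect values beyond the axis. The members' line peaks near -1, with a median of -0.84, and the bars peak around 0.

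**Figure D2:**
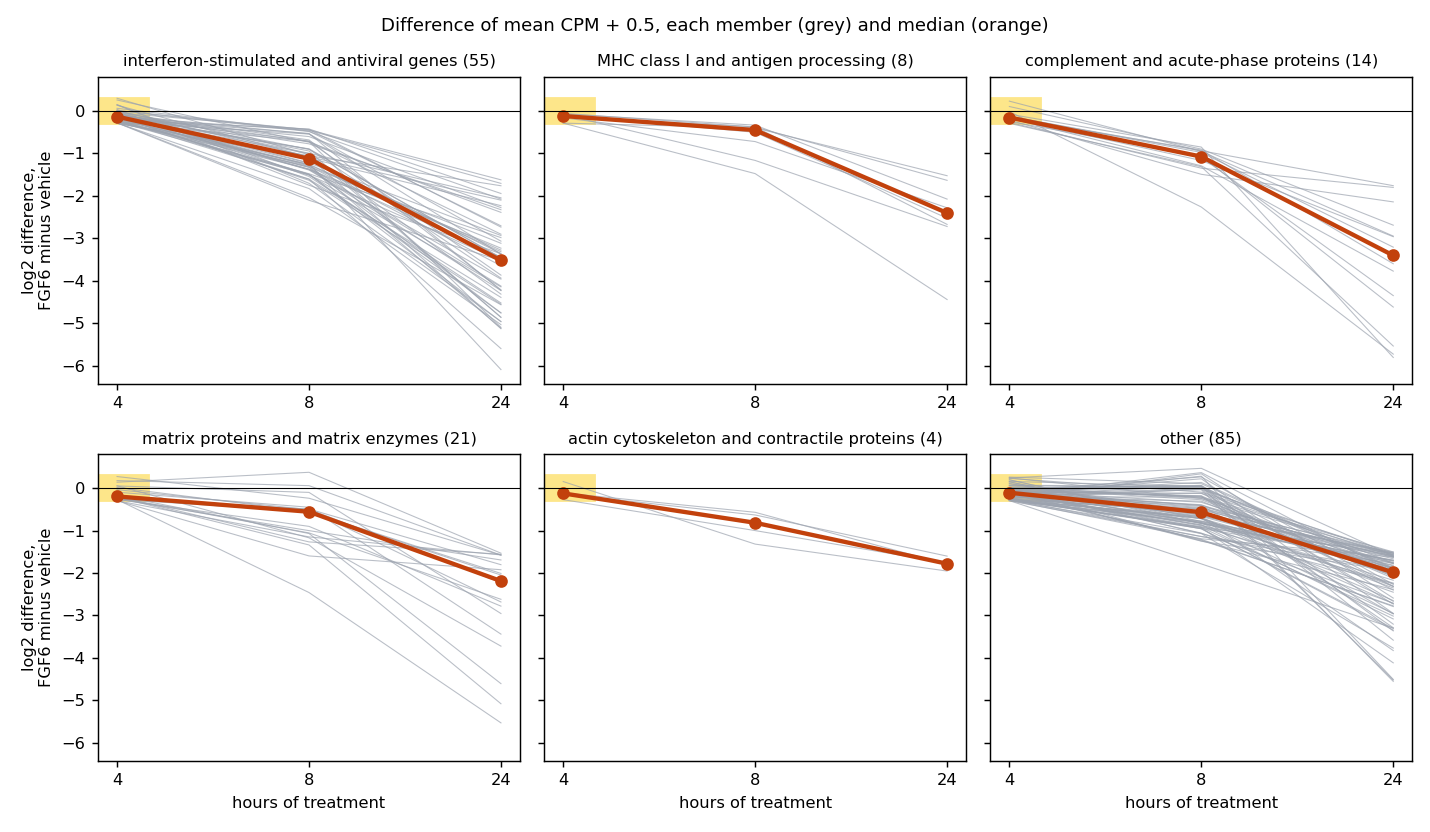
Difference d of log2(mean CPM + 0.5), FGF6 minus vehicle, at 4, 8 and 24 h for each member (grey) and the median (orange) of 6 role groups; the yellow band at 4 h is the -0.3 to 0.3 window of the rule. The medians of all 6 groups lie below 0 at 8 h, between the 4 h and 24 h values that the rule fixed.

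The 55 interferon-stimulated and antiviral members had the lowest median d at 24 h of the role groups, -3.52, and 54 of the 55 were lower at 8 h, with a median log2 fold change of -1.18. 33 of them were lower by at least 2-fold at 8 h. The one not called was Cxcl11, a chemokine that draws T cells, at -0.55 ± 0.36 (SE, FDR 0.18). Summed over the 55, the FGF6 libraries had 6179, 4816 and 5696 CPM at 8 h against 8747, 10664 and 11551 CPM in vehicle, and 1112, 1029 and 1255 CPM at 24 h. At 8 h and 24 h the 2 treatments did not overlap. The change lay in the FGF6 libraries: from 4 h to 24 h the median member changed by 0.06 on the log2 scale in vehicle and by -3.38 with FGF6. In these bulk libraries fewer expressing cells and less RNA a cell cannot be told apart.

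**Figure D3:**
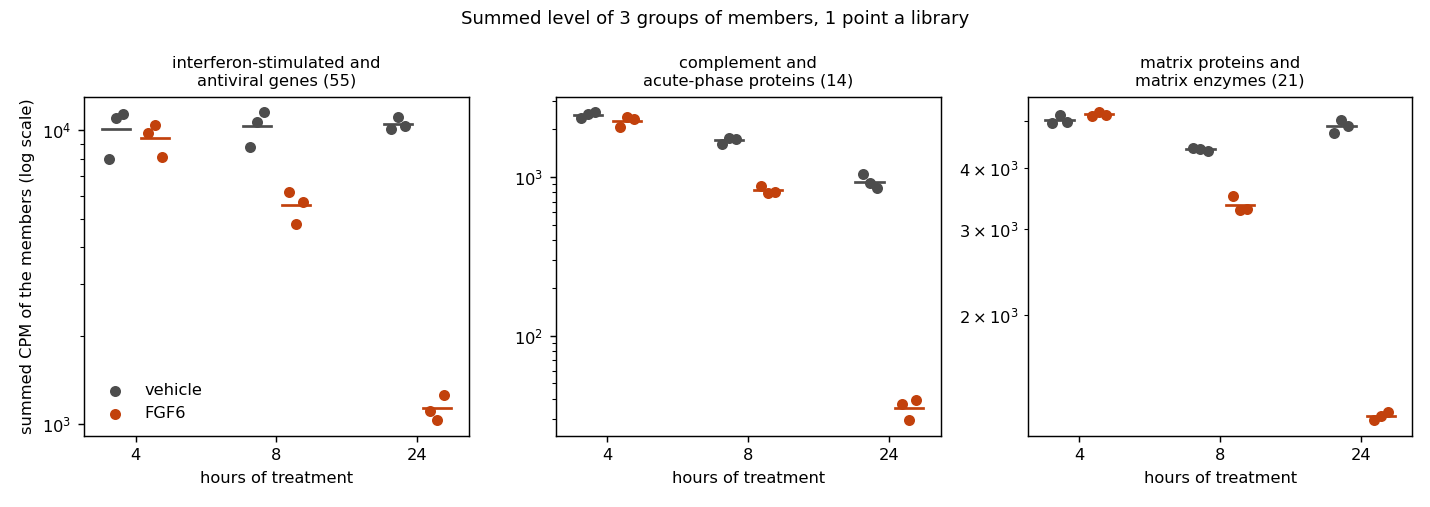
Summed CPM (log scale) of the interferon-stimulated, complement and acute-phase, and matrix members at 4, 8 and 24 h, 1 point a library, with vehicle in grey, FGF6 in orange and a line at the mean of 3 libraries. In all 3 panels the treatments overlap at 4 h and are apart at 8 and 24 h; in the middle panel vehicle is also lower at 24 h than at 4 h.

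The group held ISG15 and the protease that removes it, sensors of viral RNA, ADP-ribosyltransferases and GTPases. Ifi44, an interferon-induced antiviral protein encoded at chr3:151730922-151749960, had 122, 158 and 192 CPM in vehicle and 81.4, 50.3 and 67.1 CPM with FGF6 at 8 h, and 155, 182 and 155 against 1.51, 1.27 and 2.96 CPM at 24 h. Its treatments did not overlap at either time, and the log2 fold change at 8 h was -1.18 ± 0.18 (SE, FDR 2.4e-06). Its mean at 24 h was 85.9-fold lower with FGF6, d = -6.09, the lowest of all members. Isg15, the ubiquitin-like modifier, had 254, 317 and 351 CPM in vehicle and 144, 96.4 and 126 CPM with FGF6 at 8 h, with a fitted log2 change of -1.27 ± 0.16 (SE, FDR 1.1e-07), and 345, 405 and 334 against 17.2, 19.6 and 23.7 CPM at 24 h. Usp18, the protease that removes ISG15 and restrains the interferon receptor, had 206, 271 and 292 CPM in vehicle and 136, 95.4 and 129 CPM with FGF6 at 8 h, with a fitted log2 change of -1.03 ± 0.15 (SE, FDR 1.7e-06). For both genes the 8 h libraries with FGF6 lay below every vehicle library, by about as much as for the median member of the group.

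The oligoadenylate synthetase family, which makes the messenger that activates RNase L, was represented by Oas1a, Oas1g, Oas2 and Oasl2, an oligoadenylate synthetase-like protein. Oasl2 had 331, 444 and 491 CPM in vehicle and 166, 107 and 141 CPM with FGF6 at 8 h, with a fitted log2 change of -1.55 ± 0.17 (SE, FDR 1.2e-08), and 6.04, 5.8 and 10.3 CPM with FGF6 at 24 h. Oas2 had 0.18, 0.14 and 0.69 CPM with FGF6 at 24 h against 27.9, 32.2 and 25.4 in vehicle, a mean 85.1-fold lower. Ifit3, of the IFIT family of antiviral proteins, had 147, 228 and 272 CPM in vehicle and 75.3, 50.3 and 71.6 CPM with FGF6 at 8 h, with a fitted log2 change of -1.65 ± 0.23 (SE, FDR 7.6e-07). Its vehicle libraries at 24 h were higher, at 343, 427 and 408 CPM, and its FGF6 libraries were at 10.7, 12 and 13.6. The 4 ADP-ribosyltransferases Parp9, Parp10, Parp12 and Parp14 were all lower at 8 h, by -1.24, -1.45, -1.07 and -1.43 on the log2 scale. Of the sensors of double-stranded RNA, Ifih1 changed by -1.02 ± 0.14 (SE, FDR 4.2e-07), Tlr3 by -1.18 ± 0.17 (SE, FDR 9e-07) and Eif2ak2, the kinase PKR, by -0.71 ± 0.10 (SE, FDR 4.2e-07) at 8 h.

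Among the GTPases, Gbp2, a guanylate-binding protein, had 127, 187 and 204 CPM in vehicle and 45.7, 36.9 and 41.8 CPM with FGF6 at 8 h, with a fitted log2 change of -1.99 ± 0.19 (SE, FDR 8.8e-10). Igtp and Irgm1, which act on vacuoles of intracellular pathogens, changed by -1.59 ± 0.17 (SE, FDR 4.6e-09) and -1.34 ± 0.16 (SE, FDR 4.7e-08). Mx1, the dynamin-like antiviral GTPase, had few reads, 5.1, 7.35 and 5.39 CPM in vehicle at 24 h, and was at 3 counts or fewer in each FGF6 library at 24 h, so its mean was at least 55.5-fold lower. Rnf213, a very large ubiquitin ligase, had 1448, 1777 and 1909 CPM in vehicle and 1004, 772 and 963 CPM with FGF6 at 8 h, with a fitted log2 change of -0.84 ± 0.11 (SE, FDR 1.3e-07), but it shares 1476 exonic bases with A930037H05Rik on the opposite strand. The smallest changes at 8 h that passed the test were those of Ifitm3, -0.36 ± 0.07 (SE, FDR 8.1e-05), which blocks viral entry, and of Trim25 and Apol9b, both at -0.38. Ifi27l2a was the one member of the group whose vehicle mean also rose by more than 1 on the log2 scale from 4 h to 24 h, from 14.5, 15.1 and 19.3 to 43.6, 33.2 and 28.3 CPM.

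The level of this program varied between replicates within a group, which bears on the 4 h values that chose its members. At 4 h the 55 members summed to 7994, 10986 and 11385 CPM in vehicle and 9779, 10418 and 8091 CPM with FGF6, and for 53 of the 55 the treatments overlapped. The lowest vehicle library at 4 h, replicate 1, lay below all 3 FGF6 libraries. Without it 32 of the 55 still met the rule, with a median d at 4 h of -0.29. Without replicate 2 of FGF6 at 4 h, 42 did, and without any other single 4 h library 50 or 51 did. Leaving out any 24 h library took none of the 55 away. The place of these genes inside or outside ±0.3 at 4 h thus depended on single libraries. The overlap of the treatments at 4 h was less common in some other role groups. Over all 187 members it was found in 143, and in the rest the treatments were fully apart at 4 h. By role it was found in 7 of 8 MHC class I, 10 of 14 complement and 10 of 21 matrix members. It was found in 0 of 4 contractile and 63 of 85 other members. The rule limits d at 4 h, which bears on these counts, and no share over all genes is given.

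A list of 52 interferon-stimulated genes was used for the whole pathway. 47 of its 52 genes had d of -1.5 or lower at 24 h, and 23 of those were members. 21 were left out by a d at 4 h below -0.3 and 3 by a d above 0.3. At 8 h 48 of the 51 genes tested were lower and 1 was higher, with a median of -1.31. Among the genes left out were transcription factors of the pathway: Irf9 had d of -0.31 at 4 h and -2.65 at 24 h, Irf7 -0.36 and -5.54, and Stat2 -0.45 and -3.53. Their log2 fold changes at 8 h were -0.48 for Irf9, -1.16 for Irf7 and -1.36 for Stat2. The one list gene that was higher at 8 h was Ifi203, at 0.43, which had d of 1.29 at 4 h and -1.68 at 24 h. The list was compiled with earlier results of these data known.

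The 8 members of MHC class I and antigen processing had a median d of -2.41 at 24 h, and 7 were lower at 8 h, with a median of -0.55. Tap1, a subunit of the peptide transporter, changed most at 8 h, with 187, 241 and 254 CPM in vehicle and 91.3, 68 and 84.1 CPM with FGF6, with a fitted log2 change of -1.42 ± 0.13 (SE, FDR 2.9e-10). It shares 212 exonic bases with Psmb9 on the opposite strand. Nlrc5, the transactivator of MHC class I genes, changed by -1.11 ± 0.12 (SE, FDR 8.4e-09). The heavy chain H2-K1 had 283, 285 and 294 CPM in vehicle and 245, 173 and 189 CPM with FGF6 at 8 h, with a fitted log2 change of -0.44 ± 0.11 (SE, FDR 0.00075), and 264, 249 and 201 against 41.4, 35.2 and 46 CPM at 24 h. H2-D1 changed by -0.27 ± 0.08 (SE, FDR 0.0045) at 8 h. H2-K1, H2-D1, H2-T22 and H2-T23 are near-identical in parts, so reads may be split between them, and their separate values are uncertain. Mill2 was not called, at -0.65 ± 0.37 (SE, FDR 0.12).

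**Figure D4:**
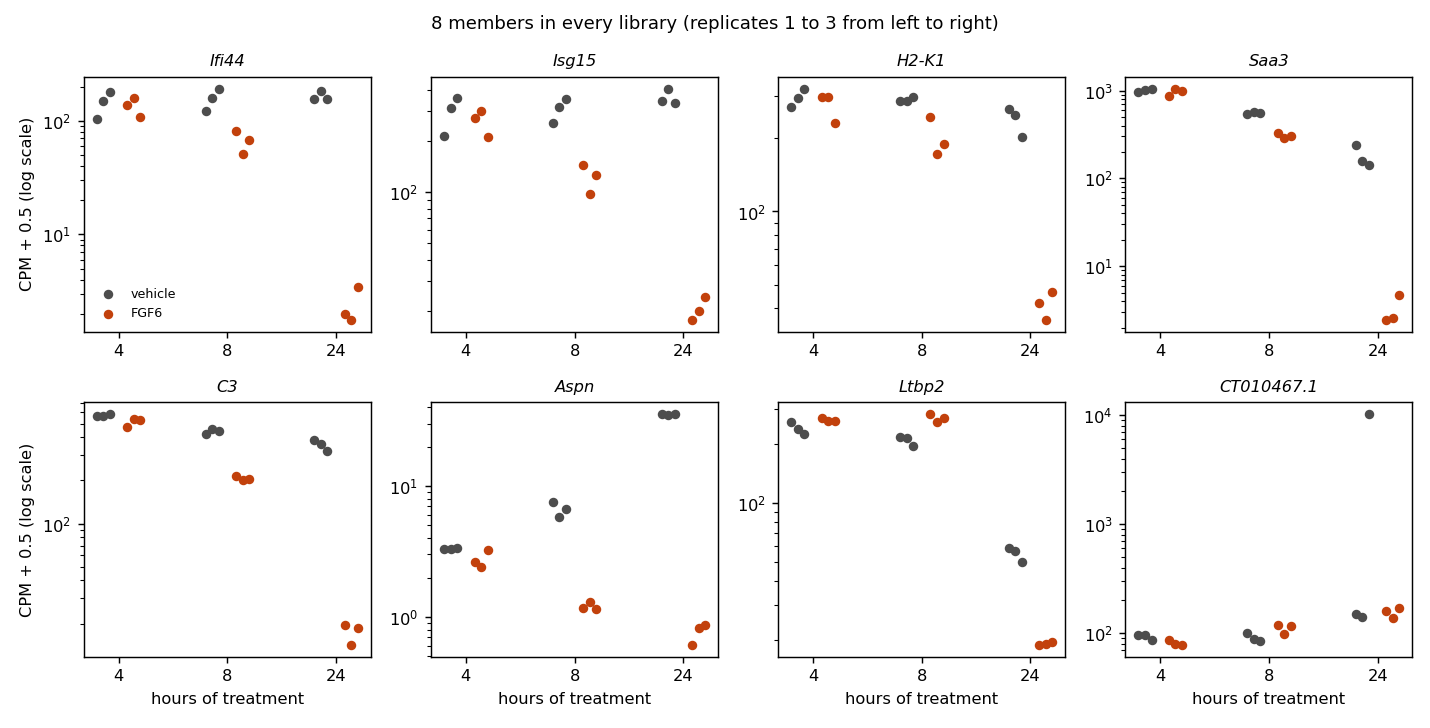
CPM + 0.5 (log scale, a scale of its own in each panel) of 8 members in every library at 4, 8 and 24 h, with vehicle in grey and FGF6 in orange and replicates 1 to 3 from left to right. Ifi44, Isg15 and H2-K1 are level in vehicle, Saa3 and C3 fall in vehicle too, Aspn rises in vehicle, Ltbp2 is higher with FGF6 at 8 h, and CT010467.1 is high in a single vehicle library at 24 h.

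The complement and acute-phase members were mostly lower at 24 h than at 4 h in both treatments, and by more with FGF6. All 14 were lower at 8 h, 9 by at least 2-fold, with a median of -1.06, and their median d at 24 h was -3.41. From 4 h to 24 h the median member changed by -1.04 on the log2 scale in vehicle and by -4.84 with FGF6, and 7 of the 14 fell by at least 1 in vehicle. Summed over the 14, vehicle libraries had 2376, 2494 and 2572 CPM at 4 h and 1045, 921 and 849 CPM at 24 h, and FGF6 libraries 2062, 2411 and 2312 CPM at 4 h, 881, 792 and 809 CPM at 8 h and 36.9, 29.3 and 39.6 CPM at 24 h. The 24 h difference of this group was thus measured against a vehicle level that had itself dropped.

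C3, the central component of complement, had 424, 457 and 443 CPM in vehicle and 214, 200.4 and 205 CPM with FGF6 at 8 h, with a fitted log2 change of -1.03 ± 0.07 (SE, FDR 6.8e-13), and 384, 362 and 320.4 against 19.2, 13.6 and 18 CPM at 24 h. C1s1 and C1ra, the mouse genes of the proteases that start the classical pathway, changed by -1.26 ± 0.07 (SE, FDR 1.9e-14) and -1.003 ± 0.06 (SE, FDR 2.2e-14) at 8 h. C4b, the next component of that pathway, changed by -0.87 ± 0.09 (SE, FDR 1.9e-09). Clu, an extracellular chaperone that also holds the terminal complex in check, changed by -0.86 ± 0.09 (SE, FDR 8.4e-09). Saa3, serum amyloid A3, had 964, 1019.9 and 1051 CPM in vehicle at 4 h, 543, 571 and 561 at 8 h and 241, 158 and 142 at 24 h. With FGF6 it had 858, 1031 and 984 CPM at 4 h, 332, 291 and 303 at 8 h and 1.94, 2.04 and 4.19 at 24 h, so that its mean at 24 h was 66.2-fold below a vehicle mean that had fallen too. Its log2 fold change at 8 h was -0.79 ± 0.12 (SE, FDR 2.8e-06).

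The antiproteases Serpina3f, Serpina3n and Serpina3m, relatives of antichymotrypsin, were lower at 8 h. Serpina3f had 37, 41.3 and 40.5 CPM in vehicle and 9.35, 7.14 and 7.03 CPM with FGF6 at 8 h, with a fitted log2 change of -2.26 ± 0.12 (SE, FDR 1.6e-14), and 43.3, 41.4 and 41.3 against 0.14, 0.035 and 0.72 CPM at 24 h. Unlike the group's median it was level in vehicle. Serpina3n changed by -1.24 ± 0.09 (SE, FDR 2.1e-12) and Serpina3m by -1.88 ± 0.28 (SE, FDR 1.3e-06), and the 3 are close paralogs whose reads could be split by the counting. Lcn2, a siderophore-binding lipocalin, changed by -0.92 ± 0.08 (SE, FDR 3.6e-10). Kng1 and Kng2, the kininogens, are neighbours and near-identical in parts, and they changed by -1.52 ± 0.10 (SE, FDR 1.5e-12) and -1.15 ± 0.09 (SE, FDR 5.5e-11). Kng1 and Lbp, the lipopolysaccharide-binding protein, were at 3 counts or fewer in each FGF6 library at 24 h, at least 17.4-fold and 33.1-fold below vehicle.

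The 21 matrix members were a mixture of courses. 18 were lower at 8 h and 11 by at least 2-fold, with a median of -1.02, and their median d at 24 h was -2.19. Their sum was 4406, 4390.2 and 4347 CPM in the vehicle libraries and 3508, 3281 and 3306 CPM in the FGF6 libraries at 8 h, and 4734, 5022 and 4885 against 1212, 1237 and 1262 CPM at 24 h. The small leucine-rich proteoglycans Aspn, Omd, Podn and the related Ecm2 were among those that changed most. Aspn, asporin, which binds collagen and TGF-beta, had 2.79, 2.82 and 2.86 CPM in vehicle at 4 h, 7.1, 5.26 and 6.19 at 8 h and 34.7, 34.3 and 35 at 24 h. With FGF6 it had 2.13, 1.91 and 2.73 CPM at 4 h, 0.68, 0.81 and 0.66 at 8 h and 0.11, 0.32 and 0.36 at 24 h, and the log2 fold change at 8 h was -3.03 ± 0.17 (SE, FDR 4.1e-14). Its vehicle mean rose by 3.40 on the log2 scale while its FGF6 mean fell, so that both arms carried the 24 h difference. Omd, osteomodulin, was at 3 counts or fewer in each FGF6 library at 8 h, at least 12.2-fold below vehicle.

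Abi3bp, the ABI3-binding protein of the matrix, had 30.6, 34.1 and 37.7 CPM in vehicle and 14.6, 13.2 and 11.8 CPM with FGF6 at 8 h, with a fitted log2 change of -1.30 ± 0.09 (SE, FDR 7.7e-13). Sparcl1, a counter-adhesive glycoprotein, had 62, 75.8 and 74.6 against 29.4, 37.5 and 33.5 CPM, with a fitted log2 change of -1.02 ± 0.09 (SE, FDR 2.9e-10), and its vehicle libraries rose to 141, 158 and 162 CPM at 24 h. Matrix members with more reads are given next. Thbs1, thrombospondin 1, which activates TGF-beta, had 655, 682 and 709 CPM in vehicle and 509.7, 479 and 452 CPM with FGF6, with a fitted log2 change of -0.44 ± 0.05 (SE, FDR 7.3e-08). Fbn1, the main protein of microfibrils, changed by -0.47 ± 0.04 (SE, FDR 4.1e-11), Col5a1, a chain of fibril-nucleating type V collagen, by -0.43 ± 0.05 (SE, FDR 1e-08) and Thbs2 by -0.17 ± 0.04 (SE, FDR 0.00036). The groups of these 4 genes did not overlap at 8 h, although the differences were under 2-fold.

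Not all matrix members were lower at 8 h. Adam12, a metalloprotease that also cleaves IGF-binding proteins, had 27.6, 32 and 27.7 CPM in vehicle and 27.6, 27.4 and 26.4 CPM with FGF6, with a fitted log2 change of -0.04 ± 0.07 (SE, FDR 0.63), and Tnxb, tenascin X, had 0.12 ± 0.06 (SE, FDR 0.066). Ltbp2, which binds fibrillin microfibrils, was higher: 283, 258 and 269 CPM with FGF6 against 217, 213 and 195 in vehicle, with a fitted log2 change of 0.44 ± 0.05 (SE, FDR 1.9e-08). At 24 h it had 58.5, 56 and 49 CPM in vehicle and 18.2, 18.5 and 18.9 with FGF6, so both arms were far below their 8 h levels. Ltbp2 shares 764 exonic bases with D030025P21Rik on the opposite strand. Tinag had under 2 CPM in every library and no count in any FGF6 library at 24 h, at least 14.6-fold below vehicle, and its fitted value at 8 h rests on 1 read in the FGF6 libraries.

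The 4 actin and contractile members were all lower at 8 h. Tns1, tensin 1, which links integrins to actin, had 107, 112 and 99.98 CPM in vehicle and 41.4, 42 and 43.9 CPM with FGF6, with a fitted log2 change of -1.27 ± 0.05 (SE, FDR 4.5e-18). Tagln and Cnn1, the smooth muscle proteins transgelin and calponin, changed by -0.51 ± 0.04 (SE, FDR 2.8e-12) and -1.02 ± 0.12 (SE, FDR 5e-08), and Mical1, an oxidase that takes actin filaments apart, by -0.58 ± 0.06 (SE, FDR 4.3e-09). Tagln and Cnn1 also fell in vehicle from 4 h to 24 h, Tagln from 246, 256 and 259 to 88.1, 86.2 and 87 CPM.

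Of the 85 members with other roles 81 were tested, 56 were lower at 8 h and 2 were higher. Regulators of NF-kB signaling were among the lower ones: Tnfaip3, the ubiquitin-editing enzyme A20, had 31.8, 34.1 and 37.4 CPM in vehicle and 14.1, 13.3 and 15.2 CPM with FGF6, with a fitted log2 change of -1.22 ± 0.07 (SE, FDR 5.4e-14), and Nfkbia, the inhibitor IkB-alpha, changed by -0.27 ± 0.04 (SE, FDR 6.8e-07). Irf4, a transcription factor of the interferon regulatory family, had 3.2, 3.34 and 2.4 CPM in vehicle and 1.13, 0.98 and 0.86 with FGF6, with a fitted log2 change of -1.51 ± 0.18 (SE, FDR 6.8e-08). Of the lipid carriers, Apoe changed by -0.36 ± 0.09 (SE, FDR 0.00074) and Pltp, the phospholipid transfer protein, by -0.90 ± 0.05 (SE, FDR 1.3e-14). Sorcs1, a sorting receptor, had the lowest value of this group, -2.69 ± 0.25 (SE, FDR 4.8e-10). Galnt18, an enzyme that starts O-linked glycans, was higher, with 41.7, 41.3 and 41.1 CPM with FGF6 and 37.1, 39.2 and 38.9 in vehicle, with a fitted log2 change of 0.17 ± 0.05 (SE, FDR 0.0068). Chst13, a chondroitin sulfotransferase, was the other, at 0.70 ± 0.25 (SE, FDR 0.015) from under 3 CPM in each library, and it no longer passed without replicate 3 of vehicle (0.59) or replicate 1 of FGF6 (0.42) at 8 h. Ghr, the growth hormone receptor, was not called at 8 h, 0.07 ± 0.06 (SE, FDR 0.31), with 151, 165 and 159 CPM in vehicle and 46.8, 45.9 and 46.2 CPM with FGF6 at 24 h.

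Splitting the 24 h difference between the arms, 151 members fell by at least 1 on the log2 scale from 4 h to 24 h with FGF6 while vehicle rose by less than 1 or fell. The vehicle change in these 151 ran from -3.21 to 0.96, with a median of -0.05. In 19 vehicle rose by at least 1 and FGF6 fell by less than 1 or rose, in 7 both moved, and in 10 neither did by that much. Of the 19 whose vehicle rose, 11 rest on replicate 3 of vehicle at 24 h, and the other 8 include Osr2, a factor of skeletal development, with 6.15, 5.44 and 6.56 CPM in vehicle at 4 h and 16.5, 17.8 and 17.1 at 24 h, and Reps2, with 0.84, 1.01 and 0.82 and 6.69, 8.9 and 8.7. Osr2 stayed at 5.65, 6.09 and 6.32 and 5.66, 6.47 and 4.77 CPM with FGF6 at 4 and 8 h and was at 2.05, 3.34 and 3.21 at 24 h. Over the 19 the median change from 4 h to 24 h was 2.47 in vehicle and 0.06 with FGF6, but Osr2 also fell with FGF6.

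**Figure D5:**
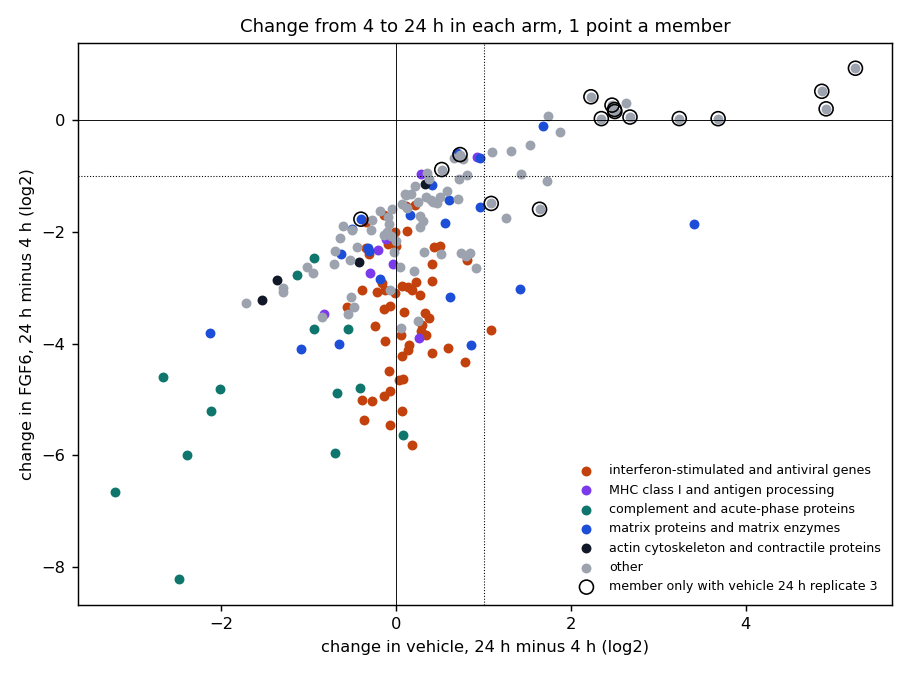
Change of log2(mean CPM + 0.5) from 4 h to 24 h in vehicle (horizontal) against the change with FGF6 (vertical), 1 point a member, coloured by role; dotted lines mark a rise of 1 in vehicle and a fall of 1 with FGF6, and rings mark the 16 members that depend on replicate 3 of vehicle at 24 h. Interferon-stimulated genes stand near 0 on the horizontal axis and far below 0 on the vertical one, complement genes are low on both, and the ringed genes lie mostly at the upper right.

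Members named for their likeness to the median member, by correlation over the 6 group means, were Parp9 (0.9995), Parp10 (0.9994) and Trim30d (0.9994), all interferon-stimulated genes. 46 members lay in 19 clusters with gaps of at most 100000 bases. The clusters of 4 were Parp14, Dtx3l, Parp9 and Gm15564 at chr16:35832874-35983230, Ifit3, Ifit1bl1, Ifit3b and Ifit1bl2 at chr19:34583531-34640743, and Trim34a, Trim34b, Trim30a and Trim30d at chr7:104244457-104507849. Ecm2, Aspn and Omd formed a matrix cluster at chr13:49504810-49592822. Several of these are families of near-identical copies, and 60 of the 187 members share exonic bases with another gene in GENCODE M21, for example Parp9 and Dtx3l, so their values are uncertain to the extent that reads were split between copies.

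At the thresholds, the members just inside a d of -1.5 at 24 h were Fes (-1.503), Tor1aip1 (-1.51) and Ifi30 (-1.53), and just outside were Myh7b (-1.497), Cd74 (-1.49) and Crabp2 (-1.49). At 4 h Tmem26, Emilin1 and Omd lay just inside -0.3 and Creb3l1, Pld3 and Gm5431 just outside. Zbp1, Thbs2 and Galnt18 lay just inside 0.3, and Mfap5, Oas3 and Egfr just outside.

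The other pathway lists held few members. The complement list had 5 members and 12 of 19 tested genes lower at 8 h, with 3 higher. The small leucine-rich proteoglycans had 4 members, 11 of 12 lower and 0 higher. The matrix glycoproteins had 8 members, 20 of 42 lower and 14 higher. The elastic fibre list had 3 members, 15 of 22 lower and 5 higher, and the collagens had 1, 20 of 33 lower and 8 higher. The matrix proteases and inhibitors had 1 member, 26 of 49 lower and 15 higher. The contractile list had 2 members, 21 of 28 lower and 3 higher. For the adipogenic and lipid list, which holds Apoe, 26 of 42 were lower and 6 higher. The chemokines and cytokines had 2 members, Cxcl11 and Cxcl16, with 15 of 37 lower and 16 higher, and the detoxification list 2, with 36 of 54 lower and 9 higher. The IGF axis had 2 members, Ghr and Pappa, with 11 of 19 lower and 6 higher, and the hormone and lipid receptors 2, Ghr and S1pr3, with 19 of 38 lower and 11 higher. The guidance cues had 1 member, Plxna2, with 28 of 54 lower and 19 higher. No member was in the WNT list (18 of 40 lower, 13 higher), the BMP and TGF-beta list (19 of 46 lower, 19 higher), the FoxO and PI3K list (29 of 40 lower, 7 higher), the cadherins (13 of 36 lower, 15 higher) or the lysosomal list (33 of 42 lower, 5 higher). In these lists without members, taken in order, 8, 7, 9, 8 and 5 genes nevertheless had d of -1.5 or lower at 24 h. Of these, 8, 6, 9, 8 and 5 were left out by a d at 4 h below -0.3. In the BMP and TGF-beta list 1 was left out by a d above 0.3. For the adipogenic and contractile lists 15 and 14 genes had such a d at 24 h, and 14 and 12 were left out below -0.3. Against the 38.4% of all genes lower at 8 h, the interferon and proteoglycan lists had the highest shares of lower genes.

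Itgad, Itgax and Mpeg1 are genes of myeloid cells. Itgad changed by -0.90 ± 0.07 (SE, FDR 9.4e-12) and Mpeg1 by -0.76 ± 0.26 (SE, FDR 0.011) at 8 h. Of 6 macrophage markers some were near 0, with at most 2 counts of Ptprc, 3 of Itgam and 2 of Adgre1 in any library. Others were detected, with up to 128 counts of Csf1r, 40 of Lyz2 and 523 of Cd68. Mean CPM of these at 24 h in vehicle and FGF6 was 1.30 and 0.37 for Csf1r, 0.90 and 0.035 for Lyz2 and 5.77 and 3.19 for Cd68. The 6 summed to 11.8 to 13.6 CPM in vehicle and 10.9 to 11.5 with FGF6 at 8 h, and to 7.62 to 8.73 and 3.34 to 3.97 CPM at 24 h, mostly from Cd68. The 7 endothelial markers summed to at most 6.15 CPM, the 5 Schwann markers to at most 6.08, the 5 epithelial markers to at most 2.53 and the 7 skeletal muscle markers to at most 16.9 in any library. Of the 11 preadipocyte and stromal markers, which define the labelled cell type, 10 had reads and Dlk1 had 0 counts in every library. They summed to 8419 to 8881 CPM in vehicle and 3829.9 to 4098 CPM with FGF6 at 8 h, and 8330.1 to 8957 against 1479 to 1590 CPM at 24 h, mostly from Col1a1 and Col1a2. Not all of them were lower with FGF6 at 24 h: mean CPM in vehicle and FGF6 was 21.1 and 130.4 for Dcn, 16.4 and 42.3 for Cd34, 62.9 and 54.8 for Thy1 and 54.2 and 41.4 for Ebf2. The 7 adipocyte markers summed to 156 to 173 CPM in vehicle and 63.1 to 69.7 with FGF6 at 24 h. Most of that sum was Fabp4, with mean CPM of 158.2 in vehicle and 65.8 with FGF6. Ucp1 alone among them was higher with FGF6 at 24 h, at a mean of 0.73 CPM against 0 in vehicle, from at most 25 counts in any library. The part of these shifts in the members' values was not tested.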

How the data were processed

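Total RNA of 18 libraries (6 groups of 3) was sequenced on Illumina instruments. Per the labels and the study's methods, the authors aligned reads to GRCm38 with STAR and deposited raw counts per gene from featureCounts of the Subread package. Versions, strand setting and the treatment of multimapping reads are not given in the sources used here. Reads from a gene and its antisense partner may therefore be mixed, and gene copies may share reads.

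CPM were computed from counts over column totals. Counts of all 18 libraries were fitted with edgeR 4.0.16 in R 4.3.3 (TMM factors, filterByExpr, quasi-likelihood test of FGF6 against vehicle at 8 h, Benjamini-Hochberg over 15071 genes), a fit first tested on simulated data. A fold against a group at 3 counts or fewer in each library is a lower bound computed at 3 counts a library, which covers counting error only. With 3 against 3 libraries an exact permutation test of 1 gene cannot go below p = 0.1, so none was used. Members and lists were chosen with earlier results of these data known, and role groups and the interferon and NF-kB motifs after the members were known. Named members are the 12 lowest at 24 h, the 6 lowest and 4 highest at 8 h, the 6 with most reads in vehicle at 24 h, those nearest the thresholds, those in the lists and those most like the median member; others were named after their values were seen. Gene positions are from GENCODE M21 (98.5% of gene IDs matched). Alternatives were DESeq2 1.42.0, other scalings, filters, pseudocounts and thresholds, a replicate block and leaving out each library.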

Additional observations from a re-analysis of the deposited data

Results flagged for a closer look

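In 4 members every FGF6 library lay above every vehicle library at 8 h and below every one at 24 h. The share of all genes so placed was not computed, and 32.4% of all genes tested were called higher at 8 h. The 24 h direction was fixed by the choice of members, and the difference between the times was not tested. The log2 fold changes at 8 h were 0.86 for Gm12248, 0.17 for Galnt18, 0.70 for Chst13 and 0.44 for Ltbp2 (edgeR quasi-likelihood test, adjusted p = 0.21, 0.0068, 0.015 and 1.9e-08). Gm12248 was under 0.4 CPM in all 8 h libraries and was not called.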

How the results depend on the processing

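Of the counts at 8 h, those of members lower held their side under each alternative run, with 147 to 154 of 183 when a library of 8 h was left out. Members higher came to 8 with no filter on low counts, 8 with only the 8 h libraries and 6 at FDR under 0.25, and to 2 to 4 when a library was left out. With at least 10 counts in every library, 136 members were tested, 39 were at least 2-fold lower and the median log2 fold change was -0.68. That filter removes members with few reads in any library, including those brought low with FGF6. The 6 members lowest at 8 h in the main fit were all removed, so these values are over a different set of members. Leaving out a library gave 64 to 83 at least 2-fold lower and medians of -0.92 to -0.75. The 405 other values of the 30 named members kept their direction and side. Gm37194 and CT010467.1 passed the test with no filter (0.65 and 0.35) and with only 8 h libraries (0.68 and 0.38), and Chst13 no longer passed without Veh.8h replicate 3 (0.59) or FGF6.8h replicate 1 (0.42), for which the cause was not tested.

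The choice of members moved more. It gave 234 members with TMM-scaled totals (179 shared), 233 with DESeq2 size factors (174 shared), 210 with a pseudocount of 0.1 (168 shared), 150 with a mean of at least 5 CPM, and 163 to 211 when a library was left out. Members with both arms moving numbered 11 with TMM, 12 with DESeq2 size factors, 11 with a pseudocount of 0.1 and 4 to 9 without a library. Members with neither numbered 4 with a pseudocount of 0.1, 3 at 5 CPM and 7 to 13 without a library, and members whose vehicle rose 11 at 5 CPM and 9 to 22 without a library, 9 of them without Veh.24h replicate 3. FGF6 fell in 185 members with TMM, 184 with DESeq2 size factors, 178 with a pseudocount of 0.1, 131 at 5 CPM and 128 to 167 without a library.

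Within each time, correlations of same-numbered vehicle and FGF6 deviations over the genes ran from -0.028 to 0.049. The same number was not compared across times, so a batch shared by replicate number was not tested. Summed over the 55 interferon-stimulated members, vehicle replicate 1 was the lowest vehicle library at 4, 8 and 24 h. With FGF6 the lowest was replicate 3 at 4 h and replicate 2 at 8 and 24 h. With the replicate block 154 members were lower, 4 higher and 73 at least 2-fold lower, with a median of -0.83. Members under about 2 CPM rest on few reads.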
